A study of Mus musculus with 8 samples.

Results

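The 44 genes described here encode the machinery of G2 and mitosis: the mitotic cyclins and their kinase, the Polo and Aurora kinases, the spindle checkpoint, the kinetochore, the motors of the spindle, the factors that cut the cell apart and the transcription factors that switch these genes on. They were chosen by symbol, by a rule on their function that holds no measured value but was drawn up with results of these data known, and all 44 had a row in the table of 41730 genes. Of these, 43 had enough reads to be tested among 13290 tested genes. Their read counts ran from 777 to 48784 per gene and library.

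The RNA came from OT-I mouse CD8+ T cells, whose transgenic antigen receptor recognises a peptide of ovalbumin. The T cells had been cultured with dendritic cells grown from bone marrow, lacking the liver X receptors (LXR) and loaded with that peptide, SIINFEKL, and were then purified by flow sorting. The control group of 4 libraries came from cultures with the solvent DMSO and the treated group of 4 libraries from cultures with 2 uM RGX-104, a synthetic LXR agonist, so peptide and LXR-/- dendritic cells were common to both groups. Neither the time in culture nor the age of the mice is stated in the labels. The labels do not say either whether the libraries of a group came from separate cultures. Each p-value, standard error and interval below therefore rests on a spread that may be technical.

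A dividing T cell builds up mitotic cyclins through G2, switches on Cdk1, aligns its chromosomes under the watch of the spindle checkpoint, and then destroys cyclin B and securin through the anaphase-promoting complex (APC/C). Most of these genes are transcribed only from late S phase to mitosis, so their level in a cell population follows the share of cycling cells. Activated CD8+ T cells divide fast and express them strongly. In these bulk libraries, fewer cells in G2 and mitosis cannot be told apart from less of the RNA per cell.

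Transcription of this gene class is known to run through the CHR, a short promoter element read by the MuvB complex together with B-Myb and FoxM1, and through CCAAT boxes bound by NF-Y. Promoter windows from 250 bases before to 50 bases after the first listed RefSeq start (GRCm38.p6) were found for 36 of the 44 genes and searched on both strands. The CHR letters TTTGAA or TTTAAA stood in 30 of the 36 windows (83.3%), against 19.7% of the 10359 tested genes with a window and 27.8% of all 27025 windows. At least 2 copies of CCAAT stood in 19 of 36 (52.8%), against 1556 of the 10359 tested genes and 12.2% of all windows. Both together were found in 18 of 36, against 2.96% of tested genes and 3.25% of all windows. Windows of a list of S phase genes held at least 2 copies of CCAAT nearly as often, in 16 of 38 (42.1%). They held the CHR letters in 8 of 38 (21.1%) and both in 4 of 38 (10.5%).

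The letters sat close to the start site. A CHR match was centred within the 50 bases after the start in 17 of the 36 windows and within the 50 bases before it in 11, whereas CCAAT was most frequent in the 50 bases upstream (18 of 36). In tested genes the corresponding shares were 2.21%, 3.11% and 12.3%. The E2F letters TTCCCGC or TTGGCGC, typical of genes of DNA replication, were in 5 of the 36 windows (13.9%, tested genes 12.1%, all windows 6.93%). In the S phase list they were in 21 of 38 windows. On opposite strands CCAAT and TTGGCGC can share letters, and TTTAAA reads the same on both strands. These matches are letters in a window and not measured binding.

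**Figure D1:**
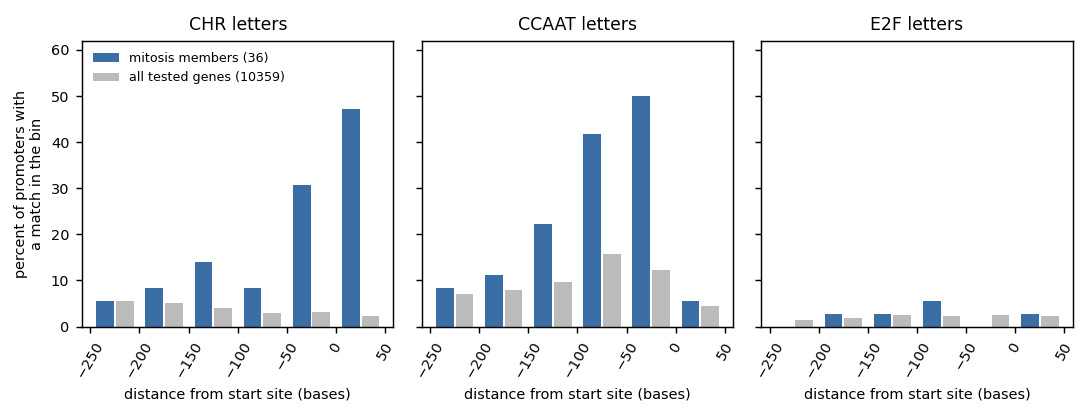
Percent of promoter windows (y axis) with a CHR, CCAAT or E2F match centred in each bin of 50 bases, by distance from the start site (x axis, bases), for 36 mitosis genes (blue) and 10359 tested genes (grey). The blue CHR bars peak at the start site, with 17 windows after and 11 before it, and the blue CCAAT bar is highest just upstream, with 18 windows.

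The windows of 5 of the genes described below are shown on the coding strand from 5′ to 3′. They are in lower case, with every CHR, CCAAT and E2F match of either strand in capitals. They belong to the proliferation marker Mki67 (chr7:135716330-135716629), the cytokinesis gene Anln (chr9:22389157-22389456), the APC/C activator Cdc20 (chr4:118437294-118437593), the mitotic kinase Cdk1 (chr10:69352863-69353162) and the cyclin Ccnb2 (chr9:70421505-70421804), all on the minus strand of GRCm38.p6.
Mki67: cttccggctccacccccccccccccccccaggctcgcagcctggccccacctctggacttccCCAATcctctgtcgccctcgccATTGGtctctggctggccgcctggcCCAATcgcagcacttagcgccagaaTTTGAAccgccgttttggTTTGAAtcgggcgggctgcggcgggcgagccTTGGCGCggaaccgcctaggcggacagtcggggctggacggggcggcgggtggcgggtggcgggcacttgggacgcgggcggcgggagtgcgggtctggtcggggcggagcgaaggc
Anln: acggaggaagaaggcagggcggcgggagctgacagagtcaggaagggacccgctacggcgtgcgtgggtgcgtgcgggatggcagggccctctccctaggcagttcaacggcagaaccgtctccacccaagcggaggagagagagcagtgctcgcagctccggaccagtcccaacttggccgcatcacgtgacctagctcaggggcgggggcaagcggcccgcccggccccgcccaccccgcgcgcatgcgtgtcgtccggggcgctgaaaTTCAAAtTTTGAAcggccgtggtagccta
Cdc20: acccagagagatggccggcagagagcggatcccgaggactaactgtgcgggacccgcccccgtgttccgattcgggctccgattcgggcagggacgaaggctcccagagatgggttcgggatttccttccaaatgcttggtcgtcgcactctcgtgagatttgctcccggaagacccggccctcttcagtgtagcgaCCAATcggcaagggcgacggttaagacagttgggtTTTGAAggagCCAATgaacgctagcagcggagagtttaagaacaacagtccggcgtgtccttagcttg
Cdk1: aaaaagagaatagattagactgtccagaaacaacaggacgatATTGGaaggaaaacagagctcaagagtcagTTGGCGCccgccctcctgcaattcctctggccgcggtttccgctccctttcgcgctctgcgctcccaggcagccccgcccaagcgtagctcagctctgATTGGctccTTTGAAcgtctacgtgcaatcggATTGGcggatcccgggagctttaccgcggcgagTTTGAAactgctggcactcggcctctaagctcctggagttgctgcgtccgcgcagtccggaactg
Ccnb2: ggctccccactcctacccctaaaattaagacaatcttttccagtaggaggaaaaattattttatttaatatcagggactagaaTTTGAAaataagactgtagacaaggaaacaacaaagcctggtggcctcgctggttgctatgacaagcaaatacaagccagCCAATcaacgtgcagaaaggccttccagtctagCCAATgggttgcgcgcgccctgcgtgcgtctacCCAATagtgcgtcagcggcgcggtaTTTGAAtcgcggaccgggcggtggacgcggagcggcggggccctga
All 5 windows hold TTTGAA on at least 1 strand, and Anln differs from the other 4 in holding no CCAAT.

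Levels are given as CPM, counts divided by library size scaled by the trimmed mean of M values. Library totals ran from 30642316 to 37714355 counts. The 10 CD8 T cell markers of the sorted cells summed to 3437 to 3543 CPM in control and 3382 to 3433 CPM in RGX-104 libraries. All RGX-104 sums lay below all control sums. Of the 9 tested markers edgeR called 3 lower and 1 higher, beside 4.13% and 4.82% of all tested genes. DESeq2 and limma-voom each called 5. Cd8a, Cd8b1 and Cd3e were lower and Lck higher with RGX-104, while Cd2 has a second row in the table and almost no counts. The 15 dendritic cell and macrophage markers summed to 17.3 to 18.9 CPM in control and 17.2 to 19.9 CPM in RGX-104 libraries. Of these, edgeR called 0 of the 5 tested, beside 8.95% of all tested genes (1 at an unadjusted p under 0.05, beside 22.2%). DESeq2 and limma-voom also called 0. The smallest edgeR adjusted p was 0.0552. Log2 changes (RGX-104 over control) of the 5 ran from -0.091 to 0.37 with a median of 0.25, 3 above 0 and 2 below. They were imprecise, as 2 of the 5 intervals lay inside a 1.25-fold change, beside 67.6% of all tested genes. The median level of the 5 tested markers was 3.34 CPM over all libraries. Among the rest, the myeloid genes Lyz2 (0.0279 and 0.0432 CPM, group means) and Csf1r (0.0282 and 0.0615 CPM) were near 0. Markers of CD4 T cells summed to 5.50 to 6.19 and 4.79 to 5.20 CPM, of B cells to 3.96 to 5.45 and 4.37 to 4.70 CPM, of NK cells to 45.9 to 51.3 and 46.7 to 55.9 CPM, and of neutrophils to at most 0.198 CPM. The NK sum was almost wholly Eomes, which T cells also express, and Ncr1, Klra8, Ms4a1 and Elane had 0 counts in every library. Among CD4 markers Zbtb7b, the 1 tested, was called lower by edgeR (log2 change -0.30, edgeR adjusted p = 0.0267) and limma-voom but not by DESeq2. Cd4 itself was at 0.228 and 0.319 CPM.

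The mitosis genes stayed close to their control level in the RGX-104 libraries. By edgeR's quasi-likelihood test, 1 of the 43 tested genes was higher and 0 were lower at a Benjamini-Hochberg adjusted p under 0.05, a share of 2.33%. Over all tested genes 8.95% were called (4.82% higher and 4.13% lower). The median log2 fold change (RGX-104 over control) was -0.0033 over the 43 genes and 0.00072 over all tested genes, with 21 of the 43 above 0. The changes spanned -5.70% (Cdc20) to 8.46% (Anln). At an unadjusted p under 0.05, 4 were higher and 6 lower, a share of 23.3% beside 22.2% of all tested genes. At an adjusted p under 0.1, edgeR called Anln and Cdc25c higher (6.91% of all tested genes) and Cdc20 lower (6.12%). DESeq2 called 0 and limma-voom with sample weights called 2.

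The spread between these libraries bounded the changes, but that spread may be technical. The intervals would then not cover variation between cultures. The 95% intervals of all 43 genes lay inside a 1.25-fold change in either direction, the lowest bound being 0.9004-fold and the highest 1.16-fold. Among all tested genes 67.6% had an interval inside 1.25-fold, but their median level was 24.4 CPM beside 153 CPM for the 43. In the related cell cycle lists described below, 192 of 196 tested genes had an interval inside 1.25-fold. The coefficient of variation between libraries of a group had a median over the 43 genes of 2.79% in control and 3.04% in RGX-104, against 5.05% and 4.49% over all tested genes, which include many with fewer reads. Control and RGX-104 libraries overlapped in 39 of the 43. They did not overlap in 4 (9.30%), beside 14.5% of all tested genes. RGX-104 was above in 2 of these (all tested genes 7.07%) and below in 2 (7.45%).

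**Figure D2:**
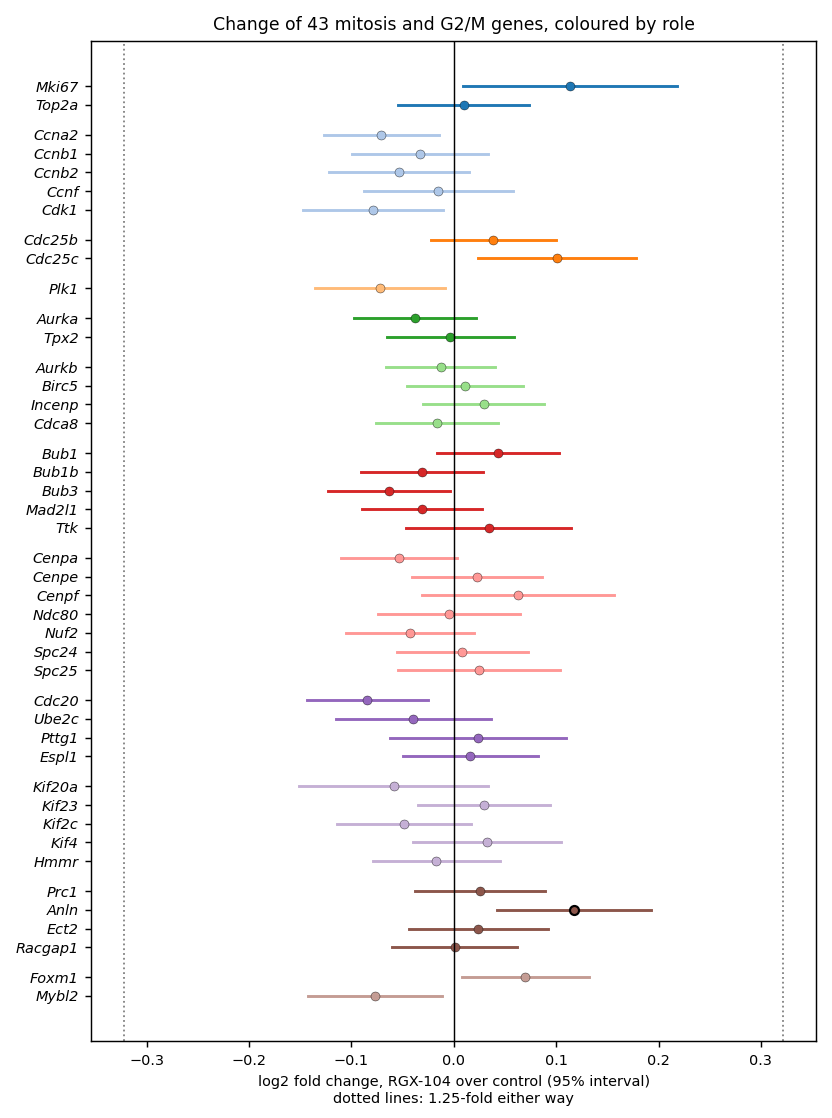
Log2 fold change of RGX-104 over control (x axis) with its 95% interval for each of the 43 tested genes (y axis, grouped and coloured by role). Every interval lies between the dotted lines at 1.25-fold, and Anln, outlined in black, is the gene called by edgeR.

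Mki67, whose protein coats mitotic chromosomes and marks cycling cells, lies on chromosome 7 from 135689784 to 135716450. It was at 1130.1, 1171, 1054 and 996 CPM in control replicates 1 to 4 and at 1130.0, 1207, 1220.0 and 1149 CPM in RGX-104 replicates 1 to 4. Control replicates 3 and 4 were low and the groups overlapped through control replicates 1 and 2. The log2 change of 0.11 ± 0.05 (SE) did not pass with edgeR (adjusted p = 0.189) or DESeq2 (0.0601), but did with limma-voom (0.0305). Top2a, the topoisomerase that untangles sister chromatids, was at 1226, 1334, 1292 and 1315 CPM in control and 1222, 1336, 1343 and 1300.0 CPM in RGX-104. Replicate 1 was the lowest library of both groups, and the interval of the log2 change was -0.05 to 0.07.

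The value for Mki67 was read beside a length trend between libraries. Its transcript has 10061 bases. Over the 1351 tested genes with transcripts of 6000 bases or more, the median log2 deviation from each gene's own mean was -0.060 in control replicate 4 and -0.022 in control replicate 3, against 0.042 in control replicate 2 and -0.0046 to 0.029 in RGX-104 libraries. Those genes had a median log2 change of 0.020. Of the 5 mitosis genes of that length, Mki67, Cenpe, Cenpf and Espl1 were lowest among controls in replicate 4, but Mad2l1 (7557 bases) was highest there. The short Cenpa (1466 bases) was also lowest there. Whether length lay behind the values of Mki67 was not tested. With a length trend removed from each library, a correction chosen after seeing the data, the change of Mki67 was 0.077 and passed (edgeR adjusted p = 0.0478). It also passed without control replicate 2 (0.15, edgeR adjusted p = 0.0177) and without a filter on low counts (0.11, edgeR adjusted p = 0.00435). It did not pass in the other 7 fits with 1 library left out, and without control replicate 4 it was 0.074 (edgeR adjusted p = 0.271).

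The 5 genes of mitotic cyclins and Cdk1 all had log2 changes below 0, and none passed the test. Ccna2, encoding the cyclin A of S phase and G2, was at 319, 325, 329 and 339 CPM in control and 304, 311, 316 and 318 CPM in RGX-104. All 4 RGX-104 libraries lay below the controls, by a narrow gap, and the log2 change was -0.07 ± 0.03 (edgeR adjusted p = 0.114). Of its exonic bases 10.4% overlap Exosc9 on the other strand.

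Cdk1, the kinase that drives entry into mitosis, was at 186, 196, 208 and 208 CPM in control and 185, 188, 190.3 and 193 CPM in RGX-104. Control replicate 1 was as low as the RGX-104 libraries, and the log2 change was -0.08 ± 0.03 (edgeR adjusted p = 0.149). It passed without control replicate 1 (-0.11, edgeR adjusted p = 0.0180). Ccnb1, the main cyclin B, was at 149, 148, 157 and 163 CPM in control and 148, 151, 148 and 156 CPM in RGX-104, so the ranges overlapped almost fully. Its relative Ccnb2 was at 108, 112, 114 and 113 CPM in control and 101, 113, 111 and 107 CPM in RGX-104. Ccnf, an F-box cyclin of the ubiquitin system, had a log2 change of -0.015 with an interval of -0.09 to 0.06.

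The phosphatases that activate Cdk1 lay on the other side of 0. Cdc25c was at 34.1, 33.6, 34.6 and 33.6 CPM in control and at 35.8, 37.5, 36.04 and 36.4 CPM in RGX-104. All treated libraries were above all controls, and the log2 change of 0.10 ± 0.04 missed the threshold (edgeR adjusted p = 0.0958). Cdc25b was at 109 CPM in all 4 control libraries and at 106, 115, 113 and 114 CPM in RGX-104. The treated libraries spread to both sides of that value (edgeR adjusted p = 0.477).

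Plk1, the Polo kinase of mitotic entry and spindle assembly, was at 198, 194, 198 and 206 CPM in control and 178, 194, 192 and 193 CPM in RGX-104. RGX-104 replicate 1 was the lowest, and the others met the lower edge of the controls (log2 change -0.07 ± 0.03, edgeR adjusted p = 0.156). Plk4, which starts centriole duplication, had 3 to 9 counts in any library and was the gene left untested. It has a second row in the table with 0 counts, and genes with such a second row passed the filter in 26.9% of 1132 cases against 54.2% of the other protein-coding genes, so its low count is not read as low expression.

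Aurora A (Aurka), which acts at spindle poles, ranged from 132 to 141 CPM in control and 131 to 136 CPM in RGX-104, and its activator Tpx2 from 279 to 299.9 and from 277 to 300.0 CPM. Neither was called. Aurora B (Aurkb), the kinase that corrects faulty spindle attachments, had the tightest values of its complex. It was at 207, 206, 208 and 209 CPM in control and 204, 207, 207 and 206 CPM in RGX-104, with an interval of -0.07 to 0.04.

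Its partners in the chromosomal passenger complex were not called either. Birc5 (survivin) was at 202, 197, 197 and 208 CPM in control and 206, 203, 203 and 199 CPM in RGX-104 (interval -0.05 to 0.07). The scaffold gene Incenp was at 309, 308, 298 and 314 CPM in control and 297, 319.5, 318 and 318 CPM in RGX-104, where replicate 1 stood apart. Cdca8 (borealin) ranged from 182 to 197 CPM and from 185 to 189 CPM. Per length, the mean level over the 8 libraries was 106 for Aurkb, 95.9 for Incenp, 116 for Cdca8 and 213 for Birc5 RPKM (CPM per kilobase of transcript). Birc5 has a short main transcript of 947 bases, and its RPKM depends on that choice.

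The spindle checkpoint holds anaphase until every kinetochore is attached. Bub1b (BubR1), part of its inhibitor of the APC/C, was at 254, 269, 265 and 266 CPM in control and 246, 262, 264 and 258 CPM in RGX-104. Bub3, which carries BubR1 and Bub1 to kinetochores, was at 199, 191, 200.4 and 207 CPM in control and 187, 195, 190.4 and 192 CPM in RGX-104. The groups overlapped in both genes, with log2 changes of -0.03 ± 0.03 and -0.06 ± 0.03 (edgeR adjusted p = 0.562 and 0.193).

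Bub1, a checkpoint kinase, was at 186, 199, 199 and 199.7 CPM in control and 202, 205, 203 and 198 CPM in RGX-104. Control replicate 1 was the low library there. Mad2l1 (Mad2) ranged from 146 to 154 CPM in control and 145 to 150.0 CPM in RGX-104. The kinase gene Ttk (Mps1) ranged from 51.3 to 58.0 and from 55.0 to 59.4 CPM. All 5 checkpoint genes failed the test, 2 with a change above 0 and 3 below.

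Among kinetochore genes, none of the 4 subunits of the NDC80 complex, which grips microtubules, was called by edgeR (0 at an unadjusted p under 0.05, 0 by DESeq2 or limma-voom). Ndc80 was at 78.9, 79.0, 84.1 and 86.0 CPM in control and 79.2, 82.7, 82.6 and 82.5 CPM in RGX-104. Spc25 was at 43.1, 44.4, 48.5 and 46.5 CPM in control and 46.6, 46.7, 46.6 and 45.8 CPM in RGX-104. In both genes the control libraries were spread wider than the treated ones. Per length the 4 subunits were at 37.2 (Ndc80), 34.9 (Nuf2), 56.0 (Spc24) and 38.5 (Spc25) RPKM.

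Cenpa, the histone that marks centromeres, ranged from 221 to 231 CPM in control and 215 to 222 CPM in RGX-104 (log2 change -0.05 ± 0.03, edgeR adjusted p = 0.260). The long kinetochore genes Cenpe and Cenpf ranged from 205 to 219 and from 160.4 to 183 CPM in control, and from 203 to 222 and from 164 to 190.3 CPM in RGX-104. Both were lowest among controls in replicate 4, as Mki67 was. The log2 change of Cenpf was 0.06 ± 0.04, and 0.017 with the length trend removed.

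Cdc20 activates the APC/C at the end of metaphase. On chromosome 4 from 118432901 to 118437343, it was at 187, 182, 183 and 189 CPM in control and at 168, 177, 175 and 179 CPM in RGX-104. The groups did not overlap. The log2 change of -0.08 ± 0.03 missed the threshold (edgeR adjusted p = 0.0659, DESeq2 0.0610, limma-voom 0.0875) and passed where no filter on low counts was used (edgeR adjusted p = 0.0487).

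RNA levels of other genes of that step, Ube2c, Pttg1 and Espl1, overlapped between the groups, and edgeR called none of them. Ube2c, the ubiquitin-conjugating enzyme of the APC/C, ranged from 164 to 185 CPM in control and 163 to 176 CPM in RGX-104, with 22.8% of its exonic bases under Tnnc2 on the other strand. Pttg1 (securin), the inhibitor destroyed at anaphase, was at 23.8, 24.5, 24.2 and 25.3 CPM in control and 25.2, 24.4, 25.2 and 24.7 CPM in RGX-104. Espl1 (separase), the protease that securin restrains, was at 262, 262, 256 and 241 CPM in control and 243, 267, 259 and 262 CPM in RGX-104. Intervals of the log2 change were -0.11 to 0.04 for Ube2c, -0.06 to 0.11 for Pttg1 and -0.05 to 0.08 for Espl1.

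Of the kinesins, Kif2c, which takes microtubules apart at centromeres, was at 109.8, 106, 109 and 114 CPM in control and 101, 107, 108 and 108 CPM in RGX-104. Kif23, a motor of the central spindle, was at 123, 130.1, 130.5 and 126 CPM in control and 123, 133, 133 and 132 CPM in RGX-104. RGX-104 replicate 1 was low in both. Kif20a ranged from 43.9 to 48.0 CPM in control and 40.5 to 48.2 CPM in RGX-104, and Kif4 (a chromosome-arm motor) from 89.9 to 97.0 and from 89.2 to 100.2 CPM. Hmmr, a spindle protein gene, ranged from 189 to 208 and from 196 to 199.7 CPM. None of the 5 passed, with edgeR adjusted p of 0.386 to 0.793. Exons of Kif20a and Kif4 overlap Cdc23 (31.8% of bases) and Pdzd11 (15.1%) on the other strand.

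The called gene was Anln, encoding anillin, which ties actin and myosin into the cleavage furrow. It lies on chromosome 9 from 22331214 to 22389211. It was at 71.9, 74.7, 67.8 and 66.1 CPM in control and at 75.0, 78.3, 75.9 and 74.8 CPM in RGX-104. All 4 treated libraries were above all 4 controls, though control replicate 2 at 74.7 and RGX-104 replicate 4 at 74.8 were almost level. The mean rose from 70.1 ± 3.90 to 76.0 ± 1.63 CPM (SD, n = 4 each), a log2 change of 0.12 ± 0.04 (SE, interval 0.04 to 0.19, edgeR adjusted p = 0.0426).

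The call for Anln was close to the threshold. With DESeq2 the adjusted p was 0.0556 and with limma-voom 0.0300. It was lost when any of control replicates 3 and 4 or any of the 4 RGX-104 libraries was left out. Over the 8 fits with 1 library left out, the edgeR adjusted p ranged from 0.0101 to 0.151. Its lowest control library was again replicate 4. With the length trend removed the log2 change was 0.11 (edgeR adjusted p = 0.0303).

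The other cytokinesis genes were near 0. Prc1, which bundles the central spindle, was at 115, 119, 119.9 and 122 CPM in control and 115, 123, 123 and 124 CPM in RGX-104. Ect2, which activates RhoA at the furrow, was at 108, 117, 118 and 118 CPM in control and 113, 119, 121 and 117 CPM in RGX-104. Replicate 1 was the lowest library of each group in both genes. Of the exonic bases of Prc1, 21.8% overlap Rccd1 on the other strand. The other genes of the 44 that share exonic bases with a neighbour were Ccnf, Cdc25b, Plk1, Cdc20 and Foxm1, at 0.194% to 7.09%. Racgap1, a partner of Ect2, ranged from 237 to 258 CPM in control and from 243 to 252 CPM in RGX-104. Its log2 change had an interval of -0.06 to 0.06.

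The transcription factors of the program had changes of opposite sign, neither of which passed. Foxm1 was at 133, 127, 128 and 126 CPM in control and 130.3, 138, 139.5 and 132 CPM in RGX-104. Mybl2, encoding B-Myb, was at 98.6, 99.4, 94.5 and 98.5 CPM in control and 92.3, 90.6, 90.2 and 97.6 CPM in RGX-104. Each group had a library inside the range of the other for both genes. The log2 changes were 0.07 ± 0.03 and -0.08 ± 0.03 (edgeR adjusted p = 0.165 and 0.141). The median change of the 29 tested genes with a CHR match was -0.0046 and that of the 6 without was -0.0037.

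**Figure D3:**
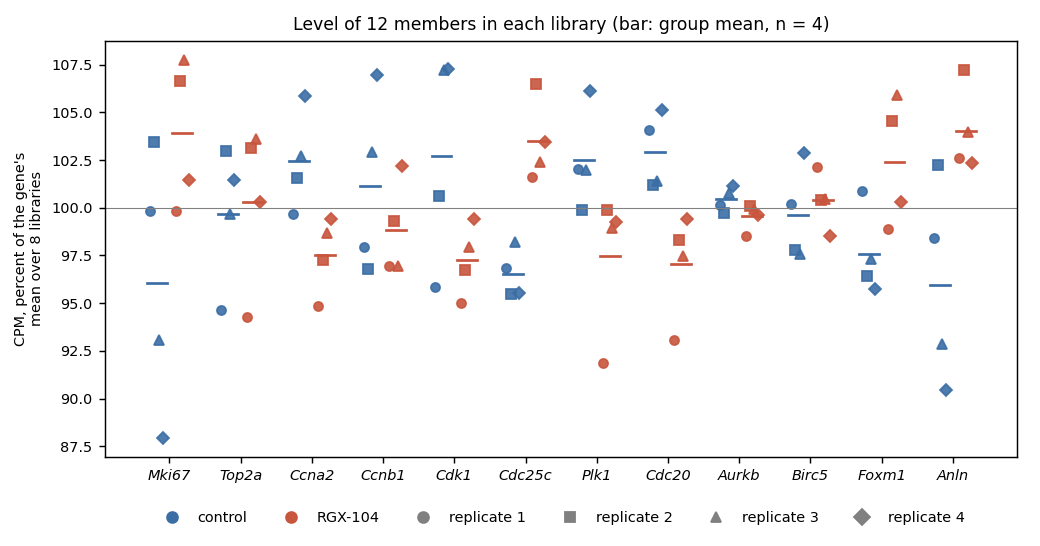
CPM in each library as a percent of the gene's mean over the 8 libraries (y axis) for 12 genes (x axis), control in blue and RGX-104 in red, with a symbol for each replicate and bars at the group means (n = 4). Red lies wholly above blue for Cdc25c and Anln and wholly below it for Ccna2 and Cdc20, while the other 8 genes overlap.

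Single libraries held the extreme values of their group in many of these genes. Control replicate 4 held the highest control value in 24 of the 43 tested genes, Ccnb1, Cdk1, Plk1 and Ube2c among them. It held the lowest in 7, which were Mki67, Cenpa, Cenpe, Cenpf, Espl1, Anln and Foxm1. RGX-104 replicate 1 held the lowest treated value in 31 of 43. Its median log2 deviation over the 43 genes was -0.053, against 0.0047 to 0.022 in the other RGX-104 libraries and -0.019 to 0.038 in the controls. RGX-104 replicate 1 also had the smallest total, 30642316 counts, and the part of depth in its low values was not tested.

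RGX-104 replicates 2 and 3 were the closest libraries, with a chi-square per degree of freedom of 1.22 over the 43 genes and 1.36 over all tested genes. Other libraries of a group differed by 3.38 to 22.8 and 2.33 to 6.77. Over all genes no libraries agreed within sampling noise, so none were merged. With RGX-104 replicate 2 left out, edgeR called 0 of the 43 genes (8 at an unadjusted p under 0.05), and without replicate 3 it also called 0 (6 at an unadjusted p under 0.05).

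**Figure D4:**
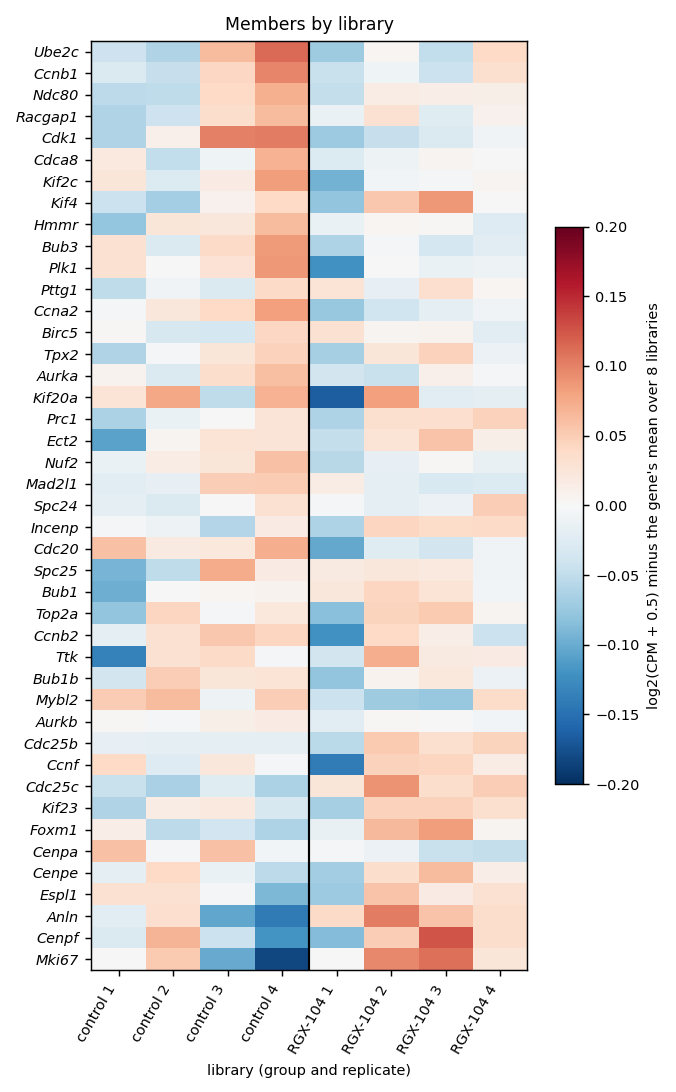
Log2(CPM + 0.5) minus the gene's mean over the 8 libraries (colour) for the 43 tested genes (rows, ordered by control replicate 4 against the other controls) and 8 libraries (columns). RGX-104 replicate 1 is blue in most rows, and control replicate 4 runs from red at the top (Ube2c, Ccnb1) to blue at the bottom (Cenpf, Mki67).

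Other genes of division were read from lists of the same machinery. Of 21 condensin and cohesin genes 0 were called by edgeR, DESeq2 or limma-voom, with a median log2 change of -0.011. Over all tested genes edgeR called 8.95%. At an unadjusted p under 0.05 it had 1 of the 21, beside 22.2% of all tested genes. Of 20 genes of the APC/C, its regulators and the checkpoint, 0 were called by the 3 tools, with a median of -0.019. At an unadjusted p under 0.05, edgeR had 5 of them lower and 0 higher, beside 10.7% and 11.5% of all tested genes. In 4 of the 20 all RGX-104 libraries lay below the controls, beside 7.45% of all tested genes. Of 29 tested centromere and kinetochore genes outside the 44, Zwint rose by 0.10 ± 0.03 and Cenpn fell by 0.17 on the log2 scale (edgeR adjusted p = 0.0210 and 0.00307), a share of 6.90% beside 8.95% of all tested genes. DESeq2 and limma-voom also called Hjurp, the chaperone of Cenpa, at a log2 change of 0.13 (adjusted p = 0.0270 and 0.0306, edgeR 0.103). Zwint links the kinetochore to the checkpoint and Cenpn reads the centromeric nucleosome.

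Of 26 tested spindle and cytokinesis genes 2 rose and 0 fell by edgeR (7.69%, all tested genes 8.95%), with a median of 0.029. They were Psrc1 (26.1 to 30.0 CPM), a microtubule regulator, and Stil (62.2 to 67.0 CPM), a centriole factor (edgeR adjusted p = 0.0276 and 0.0430). DESeq2 called Psrc1 but not Stil (adjusted p = 0.0606). Of 14 genes that control mitotic entry 0 were called by the 3 tools, where edgeR called 8.95% of all tested genes. At an unadjusted p under 0.05, edgeR had 2 of the 14 higher and 2 lower, beside 11.5% and 10.7% of all tested genes. Of 20 tested E2F, pocket protein and MuvB genes edgeR called 1, beside 8.95% of all tested genes. That gene was E2f2, an activator of S phase genes, which rose from 109 ± 3.89 to 117 ± 1.03 CPM (edgeR adjusted p = 0.0293).

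Earlier phases of the cycle held more called genes. Of 45 tested S phase genes edgeR called 9 lower and 0 higher, where 4.13% of all tested genes were lower and 4.82% higher. Their median log2 change was -0.042, beside -0.0033 for the 43 mitosis genes. Groups did not overlap in 16 of the 45 (35.6%), all with RGX-104 below, against 7.45% of all tested genes in that direction. Among them the helicase subunit genes Mcm7 fell from 556 to 516 CPM, Mcm2 from 470.2 to 437 CPM and Mcm6 from 925 to 863 CPM (edgeR adjusted p = 0.00724, 0.00786 and 0.0126). Of the exonic bases of Mcm7, 13.0% overlap other genes. In RGX-104 libraries the median log2 deviation of the S phase list ran from -0.034 to -0.014 and in controls from 0.012 to 0.048, with no overlap. The same medians over the 43 mitosis genes overlapped. The count of 9 fell to 3 to 6 when control replicate 3, control replicate 4 or any RGX-104 library was left out. The difference between the lists was not tested.

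Of 8 cyclins and kinases of G1, Ccnd2 (cyclin D2) fell from 873 ± 23.8 to 745 ± 26.2 CPM (log2 change -0.23 ± 0.03, edgeR adjusted p = 2.50e-06), and edgeR called none of the other 7. Ccnd3 (cyclin D3), with a log2 change of -0.07, missed the threshold with edgeR (adjusted p = 0.0731) and passed it with DESeq2 (0.0412) and limma-voom (0.0368). At an unadjusted p under 0.05, edgeR had 5 of the 8 lower and 1 higher, beside 10.7% and 11.5% of all tested genes. All RGX-104 libraries lay below the controls in 3 of the 8, beside 7.45% of all tested genes. Log2 changes of the 8 ran from -0.23 to 0.22, and 7 of the 8 intervals lay inside 1.25-fold. Of 13 tested cell cycle inhibitors and related genes, edgeR called 2 higher and 0 lower, beside 4.82% and 4.13% of all tested genes. Ccng1, a p53 target, rose from 281 to 306 CPM and Gadd45g, a stress-induced growth regulator, from 12.9 to 15.2 CPM (edgeR adjusted p = 0.00756 and 0.0201). The median log2 change of the 13 was 0.11, with 11 above 0 and 2 below. At an unadjusted p under 0.05, edgeR had 6 of them higher and 1 lower, beside 11.5% and 10.7% of all tested genes. Cdkn1a, encoding p21, was at 24.1 CPM in both groups (edgeR adjusted p = 0.995). In all, edgeR called 17 of 196 tested genes of these lists, a share of 8.67% that is close to the 8.95% of all tested genes. This count fell to 6 to 11 when control replicate 3 or any single RGX-104 library was left out.

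**Figure D5:**
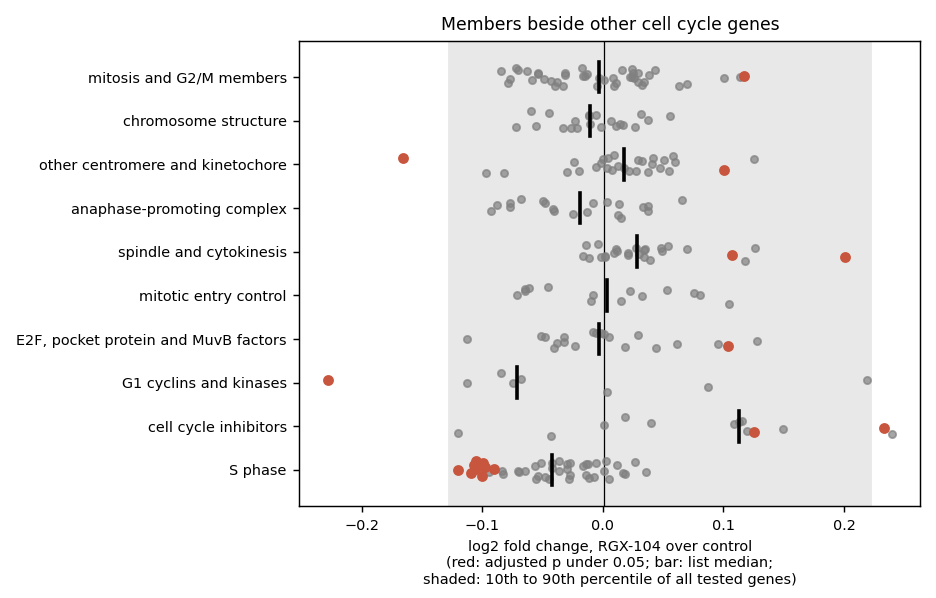
Log2 fold change of RGX-104 over control (x axis) for each tested gene of the 44 mitosis genes and of 9 related lists (y axis), with called genes in red, list medians as black bars and the 10th to 90th percentile of all tested genes shaded. The mitosis genes centre on 0 with Anln in red, and the 9 red S phase genes lie below 0.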

How the data were processed

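The data are raw gene counts, which the authors deposited as 1 matrix of 8 libraries. Per the submitters' processing notes, cutadapt 2.10, STAR 2.7.5, R 4.1.0 and DESeq2 1.4 were used on GRCm38. How reads were counted, and whether by strand, is not given in the sources used here, so reads of overlapping genes cannot be assigned with certainty. Control columns matched numbered samples. RGX-104 columns could be matched only to their group, as their numbers fit no RGX-104 sample label, and are numbered by column.

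Genes were filtered with filterByExpr (minimum count 10, minimum total 15) and tested with the robust quasi-likelihood test of edgeR 4.0.16 in R 4.3.3, scaled by TMM, with treatment as the only term. Alternatives were DESeq2 1.42.0, limma 3.58.1 (voom), RLE and upper quartile scaling, other filters, an adjusted p under 0.1, leaving out each library and, chosen after seeing the data, a transcript length correction. Standard errors and 95% intervals came from the F statistic, and the fits were tested on simulated data. Transcript lengths were those of the longest principal GENCODE M21 transcript, covering 92.4% of tested genes. Library deviations used a pseudocount of 0.5 CPM. Coordinates and promoters came from RefSeq GRCm38.p6. Members and lists were chosen with earlier results of these data known. All 44 members are named. Values for every library are given for 13 genes fixed by name, the 6 of smallest p and those with a stray library. Outside that rule they are also given for Ccnb2 and Cdc25b. Up to 3 called genes of smallest p are named from each related list.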

Additional observations from a re-analysis of the deposited data

Results flagged for a closer look

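In groups of 4 libraries, a value was set aside for a closer look when its gap to the nearest other library was over 0.829 of the group's range. Of 88 such groups over the 44 genes 9 held one, where chance gives about 1 in 20, or 4.40. Of these, 6 were low values of RGX-104 replicate 1. They were Plk1 at 178 CPM (others 192 to 194), Incenp at 297 CPM (318 to 319.5), Ndc80 at 79.2 CPM (82.5 to 82.7), Kif23 at 123 CPM (132 to 133), Kif2c at 101 CPM (107 to 108) and Prc1 at 115 CPM (123 to 124). Control replicate 1 was low for Bub1, at 186 CPM (199 to 199.7), and for Ect2, at 108 CPM (117 to 118). RGX-104 replicate 4 was low for Spc25, at 45.8 CPM (46.6 to 46.7). The groups share libraries, so these are not 9 separate events.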

How the results depend on the processing

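The count of 1 mitosis gene higher and 0 lower was unchanged with RLE scaling, upper quartile scaling and a filter of 50 counts in 4 libraries. It became 0 higher with DESeq2, 2 higher with limma-voom, 2 higher and 1 lower without a filter, 2 higher and 1 lower at adjusted p under 0.1, and 2 higher with the length correction. With 1 library left out at a time it ranged from 0 to 2 higher and from 0 to 1 lower, and the related genes called ranged from 6 to 19. Over all tested genes, 551 to 752 were higher and 438 to 687 lower in the fits with all libraries, and 462 to 719 and 377 to 621 with 1 left out. Signs changed for genes near 0: Tpx2 was at 0.0012 with limma-voom and 0.0087 with upper quartile scaling, Ndc80 at 0.0074 with upper quartile scaling, and Racgap1 at -0.00042 with limma-voom and -0.0058 without a filter (log2). The median of all tested genes moved to 0.013 with upper quartile scaling. No paired analysis was run. The numbers in the sample labels run from 1 to 4 in control and 5 to 8 in RGX-104. Column numbers run from 1 to 4 in both groups, and neither says whether libraries were paired. With 1 library left out, log2 changes ranged from -0.033 to 0.026 for Ccnf, -0.035 to 0.0047 for Cdca8, -0.0069 to 0.043 for Ect2, -0.0099 to 0.042 for Espl1, -0.045 to 0.0022 for Hmmr, -0.023 to 0.020 for Ndc80, -0.019 to 0.023 for Racgap1, -0.0060 to 0.021 for Spc24, -0.0020 to 0.055 for Spc25, -0.015 to 0.038 for Top2a, -0.024 to 0.018 for Tpx2 and -0.0040 to 0.053 for Ttk. The cause was not tested. Counts of 777 or more per library limited the 43 genes little, whereas Plk4 was too low to test.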
